A study of Caenorhabditis elegans with 11 samples.

Results

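The C-type lectin genes of Caenorhabditis elegans (symbols starting with clec-) were followed across the arrays as the probe sets annotated to a single gene of that name. They numbered 244 probe sets of 240 genes, out of 26761 probe sets listed with a gene symbol. A further 9 probe sets that share a clec- symbol with other genes were not included. All the animals belonged to the tumoral strain JK1466, labelled gld-1(-), whose allele gld-1(q485) is carried over a chromosome marked with dpy-5(e61) and unc-13(e51), and all of them, the water-treated ones included, were fed Escherichia coli HT115 that knocks down the germline tumour suppressor gld-1 by RNA interference. Whole animals were collected as L4 larvae or young adults after 48 h in liquid S medium at 20 ºC. The groups were 25 µM tryptophan-betaxanthin (3 arrays), 25 µM tryptophan methyl ester-betaxanthin (3 arrays), 25 µM tryptophan benzyl ester-betaxanthin (3 arrays) and water (2 arrays). The last 2 compounds carry a methyl or a benzyl ester on the tryptophan moiety and are called the methyl ester and the benzyl ester below. Each array came from an independent trial, numbered 1 to 3. The water array of the third trial and the wild-type arrays were not analysed here, and as RNA came from whole animals with a germline tumour, no tissue can be assigned from it.

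C-type lectin-like proteins are built around a carbohydrate recognition fold that in some members binds sugars in the presence of calcium. Many of the nematode proteins carry a secretion signal, and the family is one of the largest in the worm genome. In the intestine and epidermis a number of the genes respond to bacterial infection, with a response specific to the pathogen, and several depend on the PMK-1 p38 MAP kinase pathway. Other members act outside immunity, such as clec-38, which takes part in axon guidance.

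The measurements are log2 signals after RMA, which corrects background, equalises the arrays and summarises the probes of each set. A difference of 1 is a doubling. The signal was low for much of the family. Of the 244 probe sets, 150 had a mean signal under the median of all tested probe sets (2.28), where it may lie close to a background that was not measured, and 94 were at or above it. The range over the 11 arrays exceeded 1 log2 unit in 64 probe sets, which was 26.2% of the family and also 26.2% of all tested probe sets. Of these, 57 lay in the brighter group and 7 in the dimmer one, and 12 ranged over more than 2 log2 units. Groups were compared with a linear model fitted to every tested probe set (limma), and p-values were adjusted over all of them (Benjamini-Hochberg), each comparison on its own, and 0.05 was the threshold. In the 6 comparisons between groups, 13 members passed in at least 1, which is 5.33% of the family against 3.75% of all probe sets. The spread of the family around its median in every comparison is drawn in the plot of differences.

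**Figure D1:**
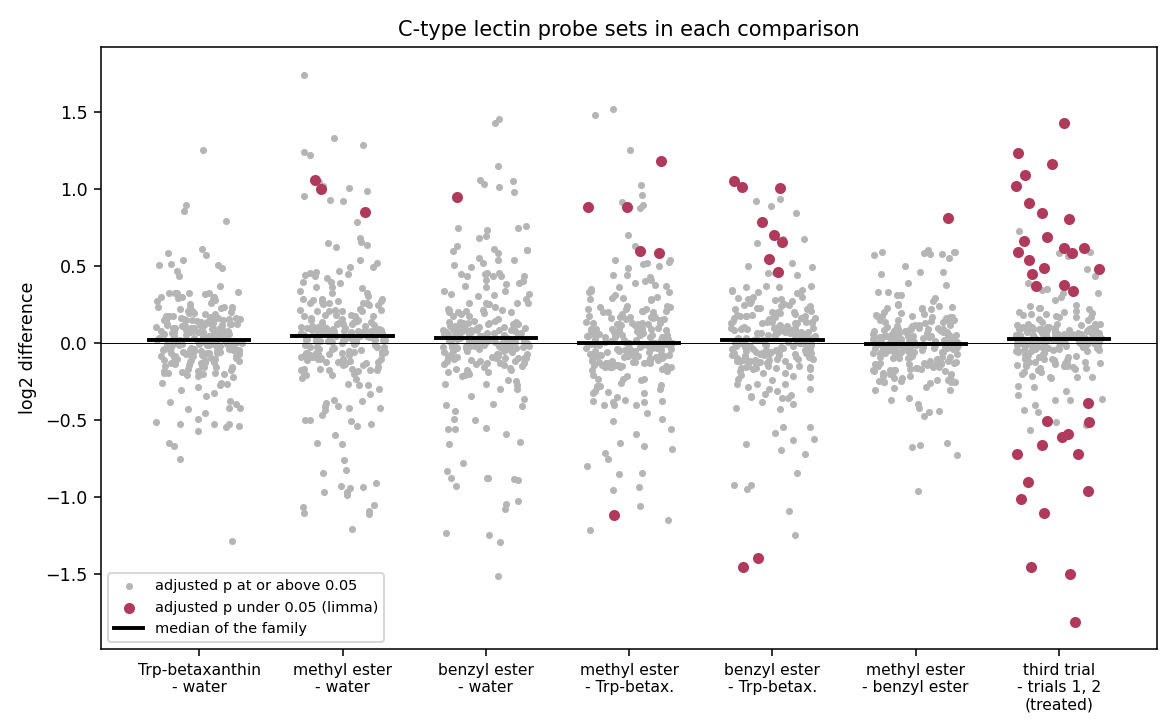
Log2 differences of the 244 C-type lectin probe sets (vertical axis) in the 6 comparisons between groups and between the third and the earlier trials of the treated animals (horizontal axis, jittered). Red points had an adjusted p under 0.05 (limma) and bars mark the family's median, which lay between -0.00 and 0.05 throughout, while 36 members passed between trials and at most 10 between groups.

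The arrays were alike in scale, with medians of 2.23 to 2.32 and pairwise correlations of 0.960 to 0.997, and no pair held identical values. The signal of gld-1 lay between 5.50 and 7.45, and with every group under the same knockdown there was no array to set it against. With each compound, oocyte, sperm and yolk markers were lowest and moulting genes highest in the third trial. The steps from the earlier trials were smaller with tryptophan-betaxanthin than with the esters. With the benzyl ester the array of trial 2 was low in part as well, at 4.30 for the germline and 5.39 for the oocyte markers, against 4.36 and 4.97 in trial 3 and 4.80 and 6.30 in trial 1. The mean log2 signal of 6 vitellogenins (yolk proteins of adult hermaphrodites) was 8.86 to 9.33 with tryptophan-betaxanthin, 7.28 to 8.99 with the methyl ester and 6.24 to 8.86 with the benzyl ester, against 9.24 to 9.26 in water, and the third trial held the lowest value of each compound. Oocyte markers (17) averaged 6.79 to 7.24, 4.83 to 6.55 and 4.97 to 6.30 with the 3 compounds in the same order, against 6.88 to 6.91 in water. Sperm markers (50) averaged 6.06 to 6.31, 5.01 to 6.05 and 5.05 to 5.99, against 6.41 to 6.42 in water, and germline markers (13) 5.03 to 5.37, 3.96 to 4.87 and 4.30 to 4.80, against 5.17 to 5.25. Moulting genes (17) averaged 5.44 to 5.73, 5.79 to 6.64 and 5.47 to 6.61, against 5.11 to 5.14. Intestine markers (12), from the tissue in which many lectins are expressed, averaged 7.35 to 7.49, 7.39 to 7.66 and 7.19 to 7.62, against 7.18 to 7.25. Neuron markers (10) lay at 5.89 to 5.93, 6.02 to 6.40 and 6.05 to 6.30, against 5.92 to 5.96, and muscle markers (8) at 8.03 to 8.44, 7.97 to 8.09 and 7.61 to 8.53, against 7.89 to 8.06. Fewer cells of a type and less RNA per cell cannot be told apart in such samples, and the part of these shifts in the lectin values below was not tested.

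With tryptophan-betaxanthin no C-type lectin gene passed the adjusted threshold relative to water in the fit of all arrays (limma, 0 of 244, where 0.00374% of all probe sets passed). This count depended on the fit, with 13 members (5.33% of the family, 2.96% of all probe sets) when just these 2 groups were fitted and 3 without the third trial. At an unadjusted p under 0.05 there were 30 members, 17 higher and 13 lower, which is 12.3% of the family against 6.04% of all probe sets. The median difference of the family was 0.02, beside 0.01 for all probe sets. The members with the smallest p were clec-227 and clec-70.

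The lectin gene clec-227 had log2 signals of 6.73, 6.50 and 6.41 with tryptophan-betaxanthin in trials 1, 2 and 3, 6.37, 6.83 and 6.92 with the methyl ester and 6.40, 6.35 and 6.44 with the benzyl ester, against 5.60 and 5.69 in water. All 9 treated arrays stood above both water arrays. The differences from water were 0.90, 1.06 and 0.75 in the same order (standard error 0.16 each), and the one with the methyl ester passed (adjusted p = 0.0398 from limma, against 0.209 with tryptophan-betaxanthin and 0.0941 with the benzyl ester). In clec-70 the treated arrays lay together on the other side. Its signals were 5.69, 5.95 and 6.11 with tryptophan-betaxanthin, 5.82, 6.34 and 5.81 with the methyl ester and 6.32, 6.03 and 5.54 with the benzyl ester, against 7.19 and 7.20 in water. The differences of -1.28, -1.21 and -1.24 (standard error 0.24 each) did not pass in the fit of all arrays, with adjusted p of 0.209, 0.0913 and 0.0666 (limma). Between compounds, clec-70 differed by 0.07 for the methyl ester minus tryptophan-betaxanthin (95% interval -0.40 to 0.55) and by 0.05 for the benzyl ester minus tryptophan-betaxanthin (-0.43 to 0.52).

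The remaining members nearest to the threshold with tryptophan-betaxanthin were clec-146 at -0.57 and clec-32 at -0.52, together with clec-230 at 0.86, clec-205 at 0.61, clec-36 at 0.54, clec-48 at 0.49, clec-10 at 0.47 and clec-116 at 0.30 (adjusted p from 0.214 to 0.685, limma). Of the whole family, 14 members had all 9 treated arrays above both water arrays (4.7% of all probe sets did) and 12 had them below (4.16% of all). The higher ones were clec-5, clec-17, clec-22, clec-48, clec-57, clec-60, clec-61, clec-80 (1 of its 2 probe sets), clec-82, clec-107, clec-166, clec-169, clec-225 and clec-227. The lower ones were clec-4, clec-32, clec-41, clec-70, clec-79, clec-97, clec-109, clec-117, clec-118, clec-127, clec-147 and clec-151.

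With the methyl ester, 3 members rose relative to water and none fell (1.23% of the family, beside 0.258% of all probe sets, 0.224% higher and 0.0336% lower). Unadjusted p-values under 0.05 were seen in 47 members (25 higher, 22 lower), 19.3% of the family against 16.4% of all. The family's median difference was 0.05, beside 0.01 for all probe sets. Besides clec-227, the risen genes were clec-186 and clec-210.

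The signal of clec-186 was nearly the same in the methyl ester arrays, at 7.05, 7.08 and 7.10, and lay at 6.04, 6.16 and 6.37 with tryptophan-betaxanthin and 6.26, 6.48 and 6.67 with the benzyl ester, against 6.04 and 6.12 in water. The methyl ester arrays stood above all the others, with a difference from water of 1.00 (standard error 0.13, adjusted p = 0.0236, limma). The dim member clec-210 had a similar order. It read 2.57, 2.49 and 2.71 with the methyl ester, 1.59, 1.68 and 1.84 with tryptophan-betaxanthin and 1.74, 1.88 and 1.70 with the benzyl ester, against 1.86 and 1.62 in water. Only the methyl ester arrays exceeded the median signal of 2.28, and their difference from water was 0.85 (standard error 0.12, adjusted p = 0.0297, limma). The other members with the smallest p did not pass, with differences of 0.92 for clec-225, 1.05 for clec-187, 0.96 for clec-47 and 0.46 for clec-243, and of -1.21 for clec-70, -1.11 for clec-7 and -0.93 for clec-118 (adjusted p from 0.0578 to 0.158, limma).

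With the benzyl ester, clec-225 rose relative to water and no other member passed (0.41% of the family, beside 0.564% of all probe sets, 0.452% higher and 0.112% lower). At an unadjusted p under 0.05 there were 52 members (31 higher, 21 lower), 21.3% of the family against 15.3% of all, and the median difference was 0.03, beside 0.01. The signal of clec-225 was 5.53, 5.22 and 5.49 with tryptophan-betaxanthin, 6.07, 5.90 and 6.17 with the methyl ester and 5.87, 6.34 and 5.997 with the benzyl ester, against 5.11 and 5.13 in water. Both esters lay above tryptophan-betaxanthin, and every treated array lay above water. The difference from water was 0.95 with the benzyl ester (adjusted p = 0.0336), 0.92 with the methyl ester (adjusted p = 0.0578) and 0.29 with tryptophan-betaxanthin (adjusted p = 0.856, limma, standard error 0.16 each). Below the threshold stood clec-230 at 1.06, clec-187 at 1.03, clec-227 at 0.75, clec-48 at 0.74, clec-10 at 0.60, clec-53 at 0.54 and clec-5 at 0.50, and, on the lower side, clec-70 and clec-73 at -1.24 each (adjusted p from 0.0666 to 0.132, limma).

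The comparisons with water share the same 2 water arrays, and the counts against them depended on single arrays. The share of all probe sets was not counted in the fits below, so the changes cannot be read as particular to the family. For the methyl ester no member passed without either water array, the tryptophan-betaxanthin array of trial 1 or 2 or the methyl ester array of trial 3, 1 passed without the tryptophan-betaxanthin array of trial 3 or the methyl ester array of trial 1, and 7 passed without the benzyl ester array of trial 3. For the benzyl ester none passed without either water array, any tryptophan-betaxanthin array or the benzyl ester array of trial 2 or 3, while 3, 9 and 5 passed without the methyl ester array of trial 2, that of trial 3 and the benzyl ester array of trial 1.

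**Figure D2:**
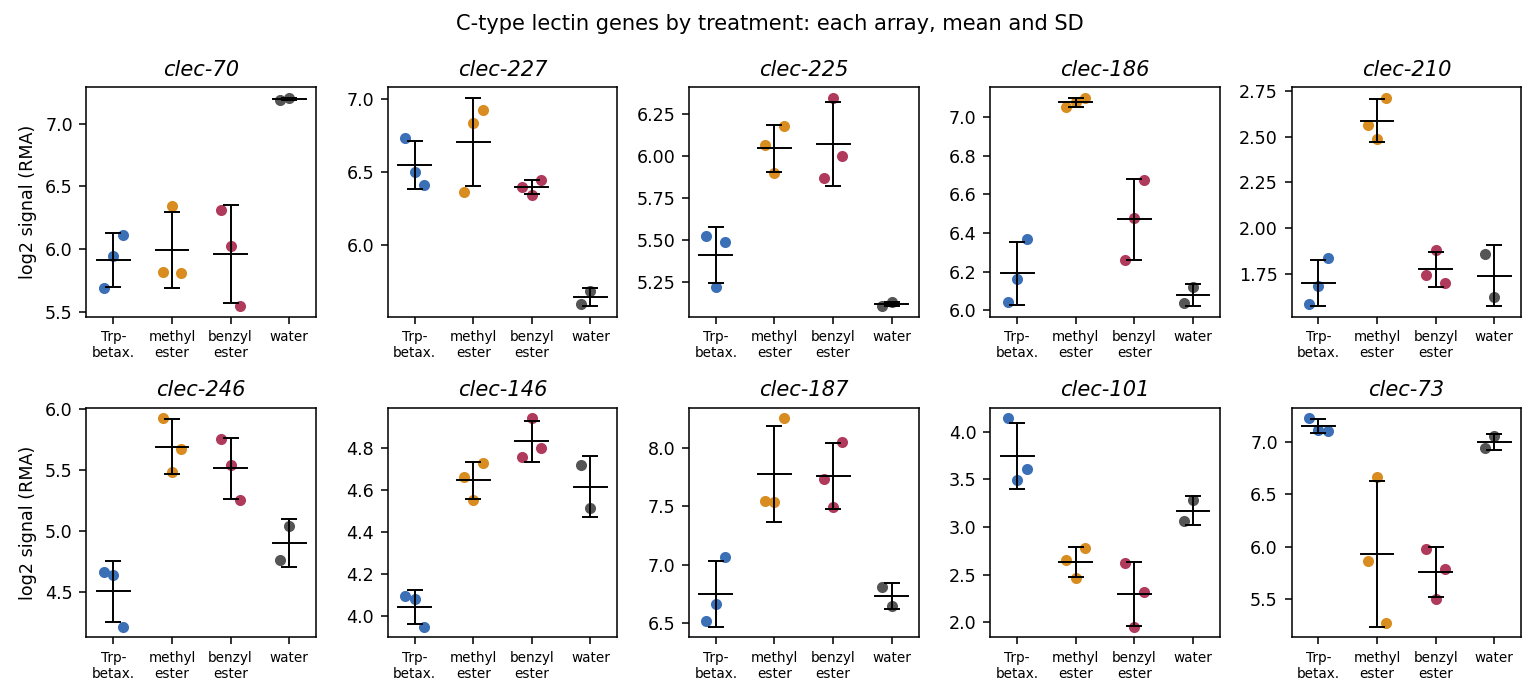
Log2 signals of 10 C-type lectin genes (vertical axes) by treatment (horizontal axes), with 1 point per array and the mean and SD of each group (n = 3, water n = 2). In clec-70 both water arrays (7.19 and 7.20) stand above all the treated ones, and in clec-186 and clec-210 the methyl ester arrays stand above the rest.

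Water was represented only in trials 1 and 2, so the comparisons were also made without the third trial. Then 3 members (clec-61, clec-70 and clec-227) passed with tryptophan-betaxanthin (2 higher, 1 lower, 0.508% of all probe sets), 15 with the methyl ester (12 higher, 3 lower, 2.3% of all) and 24 with the benzyl ester (13 higher, 11 lower, 5.44% of all). As shares of the family these were 1.23%, 6.15% and 9.84%. Only clec-70 and clec-227 passed with all 3 compounds. The difference of clec-70 from water was then -1.38 with tryptophan-betaxanthin (adjusted p = 0.0254), -1.12 with the methyl ester (adjusted p = 0.0172) and -1.03 with the benzyl ester (adjusted p = 0.0174, limma). That of clec-227 was 0.97, 0.95 and 0.73 in the same order, with adjusted p of 0.0444, 0.0193 and 0.0356 (limma).

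Between the esters and tryptophan-betaxanthin, all at the same dose and time, more members differed. With the methyl ester minus tryptophan-betaxanthin, 5 members were higher and 1 lower (2.46% of the family, beside 1.37% of all probe sets, 0.93% higher and 0.437% lower). With the benzyl ester minus tryptophan-betaxanthin, 8 were higher and 2 lower (4.1% of the family, beside 3.09% of all, 2.1% higher and 0.998% lower). At an unadjusted p under 0.05 the family lay slightly above all probe sets for the methyl ester (22.1% against 20.2%). It lay slightly below them for the benzyl ester (18% against 20.1%). The family's medians were 0.00 and 0.02, beside 0.00 and -0.01 for all probe sets. Both contrasts share the tryptophan-betaxanthin arrays, and clec-246, clec-146, clec-243 and clec-101 passed in both.

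The signal of clec-246 was 5.92, 5.48 and 5.67 with the methyl ester and 5.75, 5.54 and 5.25 with the benzyl ester, against 4.66, 4.64 and 4.21 with tryptophan-betaxanthin, and water lay at 4.76 and 5.04. Every ester array exceeded every array of the other treatments, and the differences from tryptophan-betaxanthin were 1.19 (adjusted p = 0.0202) and 1.01 (adjusted p = 0.0276, limma, standard error 0.18). In clec-146 it was tryptophan-betaxanthin that stood apart. It read 4.66, 4.55 and 4.72 with the methyl ester and 4.75, 4.94 and 4.80 with the benzyl ester, against 4.10, 4.08 and 3.95 with tryptophan-betaxanthin, while water read 4.72 and 4.51. The differences were 0.60 (adjusted p = 0.0266) and 0.79 (adjusted p = 0.00929, limma, standard error 0.10). Relative to water, clec-146 differed by -0.57 with tryptophan-betaxanthin (adjusted p = 0.214), 0.03 with the methyl ester (95% interval -0.21 to 0.27) and 0.22 with the benzyl ester (-0.02 to 0.45). The dim member clec-243 was higher by 0.59 and 0.46 with the methyl and benzyl esters (adjusted p = 0.0324 and 0.0429, limma).

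The lower member in both was clec-101. It read 2.66, 2.46 and 2.78 with the methyl ester and 2.62, 1.95 and 2.31 with the benzyl ester, against 4.14, 3.50 and 3.60 with tryptophan-betaxanthin, and water lay between them at 3.06 and 3.28. The esters differed from tryptophan-betaxanthin by -1.11 (adjusted p = 0.0378) and -1.45 (adjusted p = 0.0175, limma, standard error 0.20). With the benzyl ester clec-73 fell as well. Its signal was 5.98, 5.50 and 5.79 with the benzyl ester and a more scattered 5.86, 6.66 and 5.28 with the methyl ester, against 7.23, 7.12 and 7.11 with tryptophan-betaxanthin and 6.95 and 7.05 in water. The difference from tryptophan-betaxanthin was -1.39 with the benzyl ester (adjusted p = 0.035) and -1.21 with the methyl ester (adjusted p = 0.0665, limma, standard error 0.28).

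The other risen members were clec-210 and clec-186 with the methyl ester (0.89 each, adjusted p = 0.0106 and 0.0146) and clec-221, clec-187, clec-89, clec-225 and clec-247 with the benzyl ester (1.06, 1.01, 0.71, 0.66 and 0.55, adjusted p from 0.0397 to 0.0458, limma). Next to the threshold for the methyl ester stood clec-52 at 1.48, clec-187 at 1.03, clec-144 at 0.97 and clec-36 at -0.72 (adjusted p from 0.0515 to 0.0598). The neighbouring genes clec-186 and clec-187 were unlike in this respect. The signal of clec-187 was 7.54, 7.54 and 8.26 with the methyl ester and 7.74, 7.49 and 8.06 with the benzyl ester, against 6.52, 6.66 and 7.07 with tryptophan-betaxanthin and 6.81 and 6.65 in water, so both esters were high. In clec-186 the methyl ester arrays were highest, and the benzyl ester arrays lay between them and water. The difference between the esters in clec-186 did not pass (0.61, adjusted p = 0.195, limma).

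The arrays of a trial number deviated together for the methyl ester and tryptophan-betaxanthin, and with the trial number as a block 30 members passed in that contrast (17 higher, 13 lower, 11.1% of all probe sets). The 6 members named above were among them, and 24 were added, among which clec-76 (1.52), clec-52 (1.48) and clec-180 (1.26) were the highest and clec-73 (-1.21) and clec-123 (-1.15) the lowest. In that fit 13 of 17 oocyte, 14 of 50 sperm and 6 of 13 germline markers fell and 5 of 17 moulting genes rose, and the part of these in the lectin values was not tested. With single arrays left out, the share of all probe sets was not counted, so those changes cannot be read as particular to the family. Without the tryptophan-betaxanthin array of trial 1 or 2 no member passed in either contrast. For the methyl ester none passed without its array of trial 1, 18 without that of trial 2, 2 without that of trial 3 or the tryptophan-betaxanthin array of trial 3 and 13 without the benzyl ester array of trial 3. For the benzyl ester 2 passed without either water array, 1 without the tryptophan-betaxanthin array of trial 3 or the benzyl ester array of trial 2, 4 and 3 without the benzyl ester arrays of trials 1 and 3, and 3 and 20 without the methyl ester arrays of trials 1 and 3. Without the third trial the counts were 20 (3.3% of all probe sets) and 25 (10.9% of all).

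The methyl and the benzyl ester, which differ in the alcohol of the ester, differed in 1 member, clec-210 (0.41% of the family, 0.149% of all probe sets, 0.0374% being higher). Its difference of 0.82 for the methyl minus the benzyl ester had a standard error of 0.11 (adjusted p = 0.0213, limma). Unadjusted p-values under 0.05 were seen in 19 members, 8 higher and 11 lower, 7.79% of the family against 4.33% of all. With the trial number as a block, clec-230 passed too, making 2 (0.235% of all probe sets). The signal of clec-230 was 5.31, 5.09 and 5.62 with the methyl ester, against 5.998, 6.45 and 6.45 with the benzyl ester, with 6.08, 5.83 and 6.37 with tryptophan-betaxanthin and 5.30 and 5.17 in water. The methyl ester arrays thus lay near water and the other compounds above them, and the difference between the esters was -0.96 (adjusted p = 0.179 without the block). The remaining members with the smallest p were clec-186 at 0.61, clec-66 at 0.58, clec-156 at 0.23, clec-10 at -0.73, clec-7 at -0.67, clec-12 at -0.47, clec-170 at -0.45 and clec-247 at -0.42, and none passed. Without the third trial 2 members passed, clec-186 and clec-230 (0.46% of all probe sets). The call of clec-210 was lost without any 1 of the 6 ester arrays or the second tryptophan-betaxanthin array (adjusted p up to 0.101). For clec-225 the difference between the esters was -0.02 (95% interval -0.34 to 0.29), for clec-187 0.02 (-0.49 to 0.52) and for clec-246 0.18 (-0.22 to 0.57).

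More members passed between trials than between groups, with 3 arrays set against 6. The arrays of a trial were counted as independent there, although same-numbered ester arrays deviated together. These p-values therefore do not measure the spread between trials. In the 9 treated arrays, with the compound in the fit, 36 members differed between the third trial and the mean of the first 2, with 21 higher and 15 lower. That was 14.8% of the family, close to the 15.2% of all probe sets (6.62% higher and 8.59% lower). At an unadjusted p under 0.05 there were 59 members, 24.2% of the family against 28.5% of all. In 13 members the 3 arrays of that trial lay above the other 6 (4.15% of all probe sets) and in 8 they lay below (5.38% of all). In the same fit all 6 vitellogenins, 6 of 17 oocyte and 32 of 50 sperm markers fell and 11 of 17 moulting genes rose, as did 5 of 12 intestine markers, with 1 falling, 3 of 10 neuron and 3 of 8 muscle markers, while none of the 13 germline markers passed. The part of these shifts in the lectin values was not tested, and the trial and whatever set it apart cannot be told apart.

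The largest rise was in clec-72. It read 7.19, 7.67 and 8.11 in the third trial with tryptophan-betaxanthin, the methyl ester and the benzyl ester, against 5.79 and 5.88, 6.003 and 6.40, and 6.56 and 6.72 in the first 2 trials with the same compounds, and water read 5.88 and 5.53. Each compound moved by a similar amount (1.36, 1.47 and 1.47), giving 1.43 (standard error 0.10, adjusted p = 0.00323, limma). In clec-82 the third trial gave 8.50, 8.95 and 8.95, against 7.44 and 7.62, 7.46 and 7.56, and 7.49 and 7.79, and water lay at 7.07 and 7.05, a difference of 1.24 (standard error 0.11, adjusted p = 0.0046, limma). In clec-76 the rise was uneven. It read 4.22, 6.24 and 5.93 in the third trial, against 3.78 and 3.61, 4.75 and 5.19, and 4.07 and 4.40 before (difference 1.16, standard error 0.20, adjusted p = 0.0113, limma).

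Of the 12 members with known roles, 3 rose in the third trial (clec-60, clec-61 and clec-67), 1 fell (clec-4) and 8 did not pass. The gene clec-60, which responds to infection with Gram-positive bacteria, read 10.24, 10.12 and 10.37 in the third trial, against 9.69 and 9.78, 9.43 and 9.47, and 9.53 and 9.59 in the earlier trials, with 9.39 and 9.40 in water (difference 0.66, standard error 0.08, adjusted p = 0.00828, limma). Its neighbour clec-61 read 8.48, 9.06 and 9.05, against 7.82 and 7.92, 7.41 and 7.70, and 7.66 and 8.10, and water lay at 6.85 and 6.78 (difference 1.10, standard error 0.17, adjusted p = 0.00984, limma). In clec-61 the treated arrays of the earlier trials already exceeded water, by 1.05 with tryptophan-betaxanthin and 1.06 with the benzyl ester (adjusted p = 0.0406 and 0.00966 without the third trial, limma) and by 0.74 with the methyl ester (adjusted p = 0.0561), whereas in clec-60 those differences were 0.34, 0.06 and 0.17 and none passed. The p38 target clec-67 read 6.28, 6.72 and 6.37, against 5.66 and 5.77, 5.92 and 5.93, and 5.08 and 5.33, with water at 5.67 and 5.81 (difference 0.84, standard error 0.12, adjusted p = 0.00896, limma). The other named rises were those of clec-180 (1.02), clec-172 (0.91), clec-63 (0.81), clec-62 (0.69), clec-52 (0.62) and clec-8 (0.62).

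Among the 15 lower members the largest change was in clec-222. It read 6.28, 5.11 and 4.67 in the third trial with tryptophan-betaxanthin, the methyl ester and the benzyl ester, against 6.96 and 6.94, 7.28 and 6.66, and 7.55 and 7.59 earlier, with 7.08 and 6.92 in water (difference -1.81, standard error 0.33, adjusted p = 0.0128, limma). The adjacent clec-223 read 6.15, 4.73 and 4.09, against 6.04 and 6.25, 6.64 and 6.24, and 6.96 and 6.52, with 6.67 and 6.71 in water (difference -1.46, standard error 0.39, adjusted p = 0.0378, limma). Both genes were lowest with the esters, and clec-223 moved by 0.00 with tryptophan-betaxanthin, by -1.72 with the methyl ester and by -2.66 with the benzyl ester. In clec-97 the signal was 5.49, 4.76 and 3.40, against 6.29 and 6.09, 5.83 and 6.14, and 5.89 and 6.05, with 6.64 and 6.61 in water (difference -1.50, standard error 0.28, adjusted p = 0.0134, limma). The gene clec-4, one of those linked to defence against Bacillus thuringiensis, fell by 0.66 (adjusted p = 0.0216, limma), and the others named were clec-139 (-1.10), clec-88 (-1.01), clec-87 (-0.96), clec-151 (-0.90), clec-57 (-0.72), clec-153 (-0.72), clec-178 (-0.61) and clec-245 (-0.59).

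**Figure D3:**
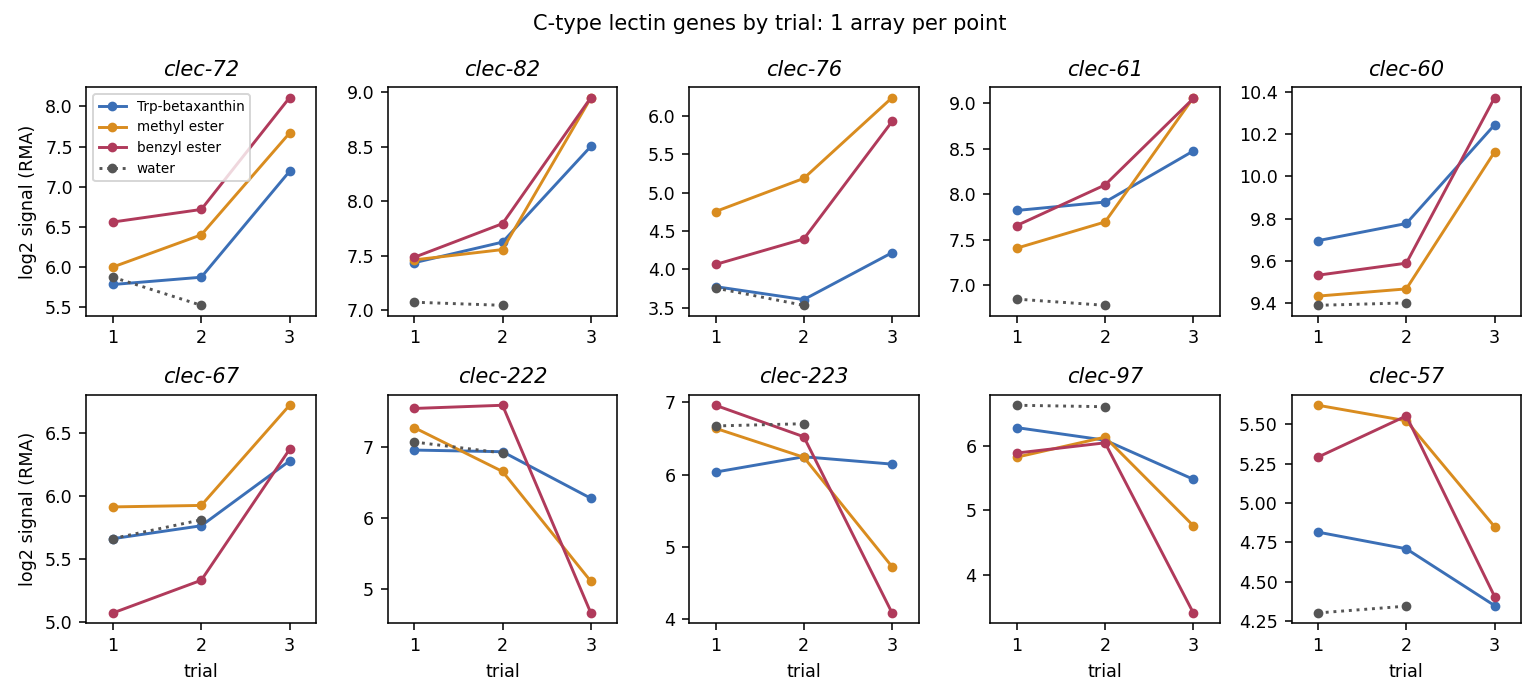
Log2 signals of 10 C-type lectin genes (vertical axes) by trial (horizontal axes), with 1 array per point and a line per treatment; water has no point for the third trial. The third-trial points lie above the earlier ones of the same compound in 6 genes, such as clec-72 and clec-61, and in clec-222, clec-223 and clec-97 the ester lines drop further than that of tryptophan-betaxanthin.

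Whether the third trial moved the esters and tryptophan-betaxanthin differently was tested with an interaction term, chosen after seeing the data. No member passed and neither did any of the other probe sets (limma). At an unadjusted p under 0.05 there were 32 members, with 12.7% of all probe sets. The smallest p was that of clec-223, at -2.19 for the esters minus tryptophan-betaxanthin (standard error 0.40, adjusted p = 0.0897). The count of 36 was lowest without an ester array of the third trial. It was 1 without the benzyl ester array of that trial and 2 without the methyl ester array of that trial. It was 20 without the methyl ester array of trial 1 and 41 without the tryptophan-betaxanthin array of the third trial. The member clec-72 passed with every array left out in turn. The share of all probe sets in these fits was not counted, so the changes cannot be read as particular to the family.

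Of the members with roles known from infection or neuronal work, several gave low signals. The axon guidance gene clec-38 lay between 1.55 and 1.78 on all arrays and clec-39, which takes part in the defence against Serratia marcescens, between 1.50 and 1.82. Both are under the median signal, and no comparison between groups called them. The other Serratia gene, clec-49, was brighter, with 6.68 to 7.03 with tryptophan-betaxanthin, 6.97 to 7.23 with the methyl ester and 6.57 to 7.28 with the benzyl ester, against 6.45 and 6.71 in water, and differed from water by 0.28, 0.49 and 0.46 (adjusted p = 0.894, 0.291 and 0.343, limma). For the Bacillus thuringiensis defence genes, clec-41 read 6.83 to 7.07, 6.63 to 6.97 and 6.75 to 7.17, against 7.33 and 7.34 in water, so that no treated array reached water, with differences of -0.38, -0.50 and -0.41 (adjusted p = 0.785, 0.193 and 0.242). The dim clec-42 lay between 1.43 and 2.12 on all arrays. For clec-4 the differences from water were -0.20, -0.50 and -0.89 (adjusted p = 0.953, 0.479 and 0.249), and without the third trial the one with the benzyl ester passed, at -0.59 (adjusted p = 0.0258, limma).

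The genes induced by Gram-positive bacteria differed from water with either sign, and none passed in the fit of all arrays. With tryptophan-betaxanthin, the methyl ester and the benzyl ester, clec-86 differed from water by -0.75, -0.42 and -0.56 (adjusted p = 0.686, 0.422 and 0.315), clec-17 by 0.16, 0.21 and 0.44 (adjusted p = 0.894, 0.42 and 0.163) and clec-60 by 0.51, 0.28 and 0.44 (adjusted p = 0.856, 0.674 and 0.502). The p38 targets clec-67 and clec-85 differed from water by between -0.15 and 0.45, and none of their values passed in the fit of all arrays (limma). Without the third trial clec-67 was lower with the benzyl ester, by -0.54 relative to water (adjusted p = 0.043) and by -0.51 relative to tryptophan-betaxanthin (adjusted p = 0.0339, limma). The 95% intervals of clec-85 against water were -0.81 to 0.57, -0.57 to 0.81 and -0.72 to 0.66, so shifts of up to that size remain possible.

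Many of the genes lie side by side. Of 231 family genes placed in the RefSeq annotation, 100 belonged to 20 runs of 3 or more with at most 2 other genes between neighbours, the longest of 13 genes. In 12 of the runs no gene was called in any comparison, and the other 8 held 17 of the 47 called genes (19.3% of the family, 18.8% of all probe sets, called in at least 1 of the 7 comparisons). As a share, 17% of the genes in runs and 21.4% of the other placed genes were called. The longest run, from clec-40 to clec-33, held 11 dim probe sets of 13 and no called gene, whereas the run of 11 genes from clec-67 to clec-79 held 4 called genes, 3 of them higher in the third trial. Close copies can share probes, and as probe sequences were not used here, signal shared between them could not be separated.

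In that run of 11, genes with negative and with positive differences stood side by side. Relative to water, clec-70 differed by -1.21 with the methyl and -1.24 with the benzyl ester, clec-73 by -1.07 and -1.24, and clec-79 by -0.94 and -0.88. Between them, clec-72 differed by 0.99 and 1.43 and clec-76 by 1.75 and 1.15, and none of these 10 values passed the adjusted threshold in the fit of all arrays (from 0.0666 to 0.45, limma). Without the third trial 6 of them passed. These were clec-70 (-1.12) and clec-76 (1.32) with the methyl ester and clec-70 (-1.03), clec-72 (0.94), clec-73 (-1.26) and clec-79 (-0.59) with the benzyl ester. The other 6 genes of the run had differences from water between -0.39 and 0.45. In the third trial clec-67, clec-72 and clec-76 rose, while clec-70, clec-73 and clec-79 had differences of -0.20, -0.33 and -0.56 that did not pass. Of other neighbouring pairs, some were unlike and some moved together. Of clec-8 and clec-4, clec-8 rose in the third trial and clec-4 fell, and of clec-57 and clec-227, clec-57 fell by 0.72 while clec-227 differed by 0.06 (95% interval -0.24 to 0.37). The pairs clec-60 and clec-61 (with 2 genes between them), clec-62 and clec-63, clec-151 and clec-153, and clec-222 and clec-223 moved the same way. The 3 genes with several probe sets (clec-78, clec-80 and clec-260) passed none of the 7 comparisons without the block. Their probe sets disagreed in clec-260, where the benzyl ester differed from water by -0.82 in 1 set and by -0.02 in the other without the third trial (adjusted p = 0.0088 and 0.966, limma).

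**Figure D4:**
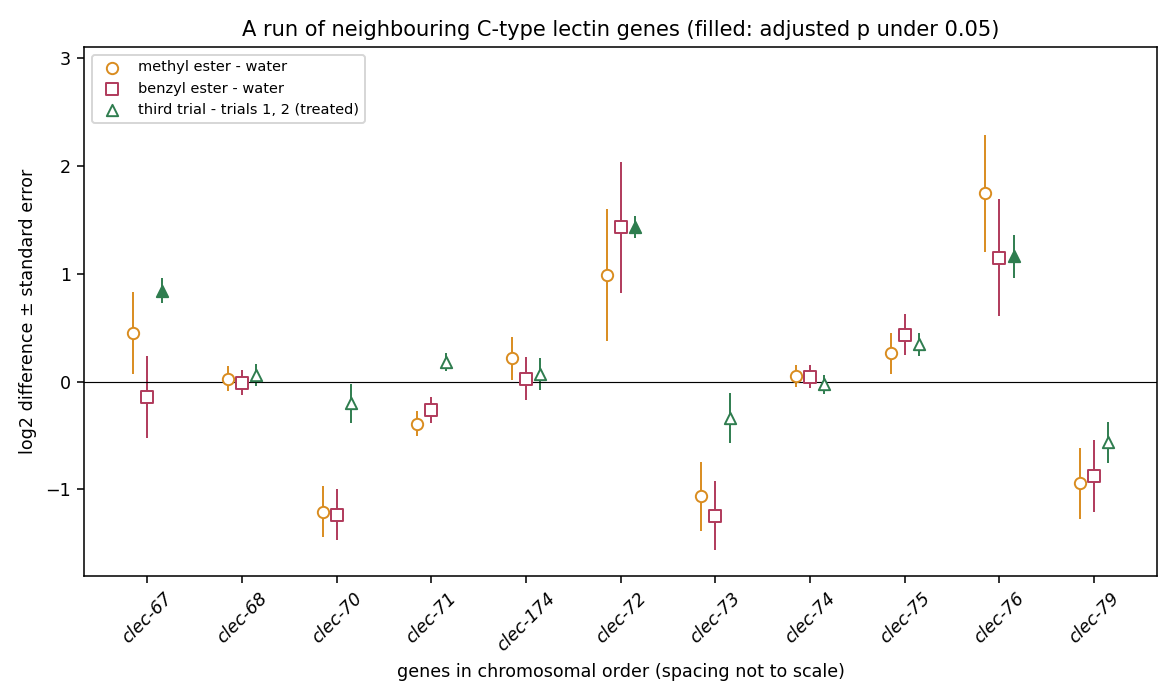
Log2 differences with standard errors (vertical axis) of 11 neighbouring C-type lectin genes in chromosomal order (horizontal axis, spacing not to scale) for the methyl ester minus water, the benzyl ester minus water and the third minus the earlier trials. Filled symbols had an adjusted p under 0.05. Negative values of clec-70, clec-73 and clec-79 stand beside positive ones of clec-72 and clec-76.

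Other parts of the innate immune response were set beside the lectins. Of 87 probe sets of other effectors (lysozymes, caenopores, caenacins, nlp, infection response and related genes), 3 rose with the methyl ester and another 3 with the benzyl derivative relative to water, and none passed with tryptophan-betaxanthin. The genes were irg-4 (3.93), cnc-3 (1.55) and the invertebrate lysozyme gene ilys-2 (1.40) with the methyl ester, and ilys-3 (2.01), cnc-3 (1.65) and lys-6 (0.70) with the benzyl ester. Relative to tryptophan-betaxanthin, 6 rose and 2 fell with the methyl ester and 6 rose and 1 fell with the benzyl ester, and none passed between the esters. The largest of these were irg-4 (3.65), ilys-3 (1.65), nlp-34 (1.61) and ilys-2 (1.35) with the methyl ester and ilys-3 (1.66), abf-6 (0.85) and cnc-4 (0.84) with the benzyl ester, and the lysozyme gene lys-5 was the lowest in both (-1.24 and -1.18). The list's medians were 0.03, 0.09 and 0.06 against water and 0.15 and 0.10 for the methyl and benzyl esters against tryptophan-betaxanthin, beside 0.01 or less for all probe sets. Of all probe sets, 0.224% and 0.452% rose with the methyl and benzyl esters relative to water. Relative to tryptophan-betaxanthin, 0.93% and 2.1% of all rose and 0.437% and 0.998% fell.

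In the third trial 6.62% of all probe sets rose and 8.59% fell. Of the 87 effectors 16 rose there and 4 fell, led by dod-24 (2.77), dod-17 (1.20) and the lysozyme gene lys-7 (1.05), with spp-23 (-1.64), dod-23 (-1.61) and sysm-1 (-1.16) the lowest. Of 34 signalling and regulator genes, 14 rose and none fell, with a median of 0.39, beside 0.01 for all probe sets. These included the G protein-coupled receptor gene fshr-1 (0.77), the intestinal GATA factor elt-2 (0.68), which also stands among the intestine markers, and the p38 kinase pmk-2 (0.36). Only 1 of the 34 regulators lay under the median signal, and with dim probe sets left out 33.2% of all passed there in either direction. The regulators averaged 5.42, 5.47 and 5.55 in trials 1 to 3 with tryptophan-betaxanthin. They averaged 5.52, 5.52 and 5.96 with the methyl ester and 5.48, 5.49 and 5.96 with the benzyl ester. The p38 kinase pmk-1 rose with the benzyl ester relative to tryptophan-betaxanthin (0.66), as did pals-22 (0.60), and no regulator passed in the other 5 comparisons between groups. With the trial number as a block, 11.1% of all probe sets passed for the methyl ester relative to tryptophan-betaxanthin. In that fit 27 effectors rose and 3 fell, and 3 regulators and 1 galectin rose. For the benzyl ester relative to tryptophan-betaxanthin 11.3% of all passed with the block. There 15 effectors rose and 1 fell, and 7 regulators and 2 galectins rose. Without the block none of the 12 galectin genes, which encode another group of sugar-binding proteins, passed in any comparison, and their medians lay between -0.05 and 0.22. Of the marker lists, 2 oocyte and germline genes (puf-5 and pgl-3) fell with the benzyl ester relative to tryptophan-betaxanthin, the moulting gene nekl-2 rose with both esters, nekl-3 and the neuron marker unc-64 rose with the benzyl ester, and no other marker passed between groups.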

How the data were processed

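Total RNA of whole animals was hybridised to C. elegans Gene 1.1 ST arrays. The authors deposited log2 signals, 1 per probe set and array, after RMA. For this step the submitters' processing notes name Affymetrix Expression Console and the paper Transcriptome Analysis Console, with the versions not given in the sources used. RMA equalises the arrays, so a change in total RNA cannot be seen. Symbols came from the platform annotation given with the series. All 244 members were matched to RefSeq genes (WBcel235) by gene identifier, which served only for names and neighbours.

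The 26761 probe sets with a symbol, of 29317, entered lmFit and eBayes of limma 3.58.1 (R 4.3.3) with 4 groups and 11 arrays. The third trial was compared with the first 2 in the 9 treated arrays, with the compound as a factor. P-values were adjusted by Benjamini-Hochberg over all probe sets. The script was tested on simulated data. Named members were all those past the threshold (at most 12 in each direction), the 10 with the smallest p where fewer than 10 passed, and 12 with known roles. Genes named for pairs, runs or single trials were chosen after their values were seen. The members and lists were chosen with earlier results of these data known. The lists were other immune effectors, immune regulators, galectins, and markers of intestine, yolk, oocytes, sperm, germline, moulting, neurons and muscle, and a few genes stand in more than 1 of them.

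Replicate numbers are the trial numbers in the labels. Between groups the p-values rest on the spread of trials within each group, and the fit without the block does not use their pairing. Against water, the third trial enters on the treated side only. The third-trial comparison counts the arrays of a trial as independent, so its p-values do not measure the spread between trials. Same-numbered arrays deviated together between the methyl ester and tryptophan-betaxanthin (correlations 0.214, 0.291 and 0.453) and between the esters (0.501, 0.235 and 0.742). Between the benzyl ester and tryptophan-betaxanthin the values were 0.272, -0.0609 and 0.472. With water they ran from -0.0467 to 0.134. As the 2 water arrays deviate from their mean by equal and opposite amounts, the values with water cannot show whether trials were shared. Alternatives were the trial as a block, a fit of just the groups compared, a prior variance with intensity trend and robust estimation, cyclic loess, a filter on dim probe sets, omission of the third trial and each array left out in turn. Scanner files were not used here, so the background correction was not varied. The number of arrays limits the precision.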

Additional observations from a re-analysis of the deposited data

How the results depend on the processing

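The counts of called members depended on the settings. With the trial as a block (replicate number), 0 members passed for tryptophan-betaxanthin, 8 for the methyl ester and 6 for the benzyl ester against water, 30 and 26 for the methyl and benzyl esters against tryptophan-betaxanthin and 2 between the esters, where without it 0, 3, 1, 6, 10 and 1 passed. The shares of all probe sets with the block were 0.0336%, 1.19%, 1.28%, 11.1%, 11.3% and 0.235%. All groups carry the same trial labels. Between the benzyl ester and tryptophan-betaxanthin, same-numbered arrays did not deviate together in every trial. In the 3 comparisons with water this could not be judged, as there were only 2 water arrays. Whether the arrays of a trial shared more than its number was not tested. When a fit held just the 2 groups in question, 13, 0, 0, 3, 8 and 0 passed in the same order, beside 2.96%, 0%, 0%, 0.206%, 3.07% and 0.00374% of all probe sets. Omission of the third trial gave 3, 15, 24, 20, 25 and 2. An intensity trend with a robust prior gave 1 for the methyl ester and 0 for the benzyl ester against water and 4 for the benzyl ester against tryptophan-betaxanthin (0.194%, 0.389% and 1.1% of all). Cyclic loess gave 0 for the benzyl ester against water and 6 for it against tryptophan-betaxanthin (0.441% and 3.02% of all), and leaving out dim probe sets gave 0 between the esters, since clec-210 is dim. With each array left out in turn, the counts ran from 0 to 0, 0 to 7, 0 to 9, 0 to 18, 0 to 20 and 0 to 1 in the same order, and from 1 to 41 for the third trial. The shares of all probe sets in those fits were not counted. For the third trial, the trend with a robust prior gave 37 and cyclic loess 36 (15.2% and 14.8% of the family, 15.1% and 15.5% of all). Without dim probe sets 39 passed there, which was 41.5% of the brighter members against 33.2% of all brighter probe sets. Apart from the filter, the cause of these differences was not tested. Of the values of named members under all alternatives, 985 kept their direction and side of the threshold. Another 248 no longer passed, 62 newly passed and none changed direction while past the threshold. The 985 include named members that had not passed to begin with, so they do not measure how stable the calls were. Only values that had passed could be lost. Their number, against which the 248 should be read, was not counted.

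The number of arrays (2 or 3 a group) limits the precision, as do signals under the median of all probe sets in 150 of the 244 members.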
